A study of Mus musculus with 30 samples.

Results

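The mitochondrial genome of the mouse carries its own small set of genes, and the transcripts of these genes were followed through whole forebrain and isolated microglia of mice with and without interleukin-34 (IL-34), a cytokine that binds the receptor encoded by Csf1r. Members were the genes whose symbol begins with mt- in the deposited count table, 37 of the 51752 genes listed. They comprise 13 messenger RNAs (mRNAs), 2 ribosomal RNAs (rRNAs) and 22 transfer RNAs (tRNAs). The study used 15 mice in 2 experiments. In the genotype experiment, 3 Il34 knockout (KO) animals were set against 4 Il34 heterozygous (Het) animals, so the controls carry 1 intact copy of the gene. In the antibody experiment, 4 wild-type animals received a blocking antibody to IL-34 (anti-IL34) and 4 received anti-gp120, the control antibody. Each animal was perfused with saline and gave 2 libraries, 1 from the whole forebrain of a hemisphere and 1 from cells of the other hemisphere captured by a magnetic-bead CD11b isolation, called isolates or microglia here. The labels do not state age, dose or schedule. Animal numbers restart between experiments, so Het animal 1 and anti-gp120 animal 1 are different mice. KO animal 3 was the only male of its arm and anti-IL34 animal 11 the only female of its arm.

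Mitochondrial DNA is transcribed by the polymerase encoded by Polrmt, with the help of Tfam, into long RNAs that span many genes. The tRNAs lie between most of the other genes, and cutting at the tRNAs releases the mRNAs and rRNAs. Most of the mRNAs are then polyadenylated and kept stable by a complex that includes the product of Lrpprc. The products of the mRNAs are core subunits of NADH dehydrogenase (complex I), of the cytochrome bc1 complex (complex III), of cytochrome c oxidase (complex IV) and of ATP synthase. All of these work beside subunits encoded in the nucleus. The rRNAs form the mitochondrial ribosome. Because each cell holds many copies of this genome, its transcripts take a large share of the RNA of tissues with high respiration, brain among them.

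The 15 mRNA and rRNA genes fell into a well-counted set and a nearly uncounted set. The well-counted set held 9 genes with at least 1000 counts in each of the 30 libraries, namely mt-Rnr1, mt-Rnr2, mt-Nd1, mt-Nd2, mt-Co1, mt-Nd4, mt-Nd5, mt-Nd6 and mt-Cytb. The other 6, mt-Co2, mt-Atp8, mt-Atp6, mt-Co3, mt-Nd3 and mt-Nd4l, never exceeded 467 counts and together made up 0.0132% of all mitochondrial counts. These 6 lie next to each other on the genome, from chrM:7013 to chrM:10173 on GRCm38. A stretch of chromosome 1 carries a nuclear copy of the same region, annotated as 7 genes on the minus strand between chr1:24611535 and chr1:24616197. The first pair of sequences below shows the start of the aligned parts of mt-Co1 and of its copy Gm29216 in transcript orientation. Capitals mark the only base that differs over the 483 aligned bases. This is A1066T, counted from 1 at the 5′ end of mt-Co1, with the base of mt-Co1 first. The second pair shows the first 60 bases of mt-Co2 and of its copy Gm28661, which are identical.

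mt-Co1 (bases 1063 to 1122): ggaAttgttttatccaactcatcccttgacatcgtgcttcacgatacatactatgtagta

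Gm29216 (bases 10 to 69): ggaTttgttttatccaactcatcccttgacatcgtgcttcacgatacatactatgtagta

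mt-Co2 (bases 1 to 60): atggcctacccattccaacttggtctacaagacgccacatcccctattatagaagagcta

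Gm28661 (bases 1 to 60): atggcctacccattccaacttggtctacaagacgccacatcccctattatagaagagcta

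Over the whole copied region, the aligned parts of mt-Co2, mt-Atp6, mt-Co3, mt-Nd3, mt-Nd4l and mt-Nd4 had 0 mismatches to their copies. Of all stretches of 50 bases, 99.5% of those in mt-Co2 also occur in the chromosome 1 copies. That share was 99.5% for mt-Atp6, 99.9% for mt-Co3, 98.0% for mt-Nd3 and 98.8% for mt-Nd4l. It was lower in the members of the well-counted set that reach into the region, at 62.2% for mt-Nd4 and 28.7% for mt-Co1. Counting any other transcript, 51.1% of the stretches of mt-Co1 occur elsewhere. The part of shared sequence in the low counts was not tested. No stretch of mt-Atp8 lies within an annotated copy, but the gap between the copies of mt-Co2 and mt-Atp6 is 233 bases, the same as on the mitochondrial genome where mt-Atp8 sits. The copies themselves held 58 to 381 counts per library when summed without Gm10222, the copy of mt-Nd4l, which held 1 to 13. The reads of the 6 genes thus do not appear under the copies either. How the authors treated reads that fit more than 1 place is not given in the sources used here, and levels of the 6 genes are therefore reported as uncertain throughout.

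**Figure D1:**
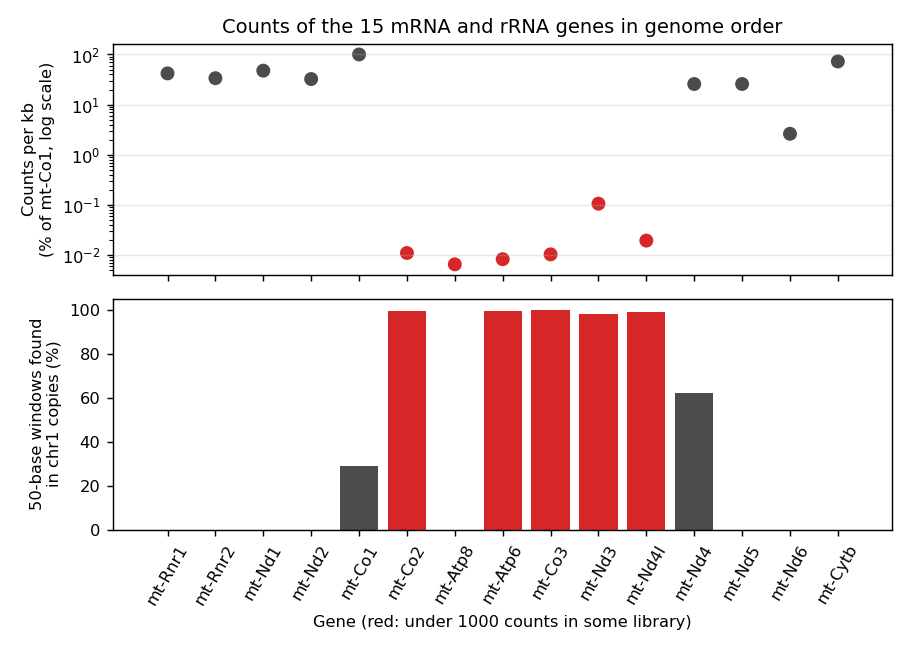
Upper panel, counts per kb of gene length as a percent of mt-Co1 on a log axis, from counts summed over 30 libraries, for the 15 mRNA and rRNA genes in genome order. Lower panel, percent of 50-base stretches of each gene found in the chromosome 1 copies; the 6 genes in red had under 1000 counts in some library, and 5 of them have bars of 98.0% or more.

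Per kb of gene length, with mt-Co1 set to 100%, the well-counted genes ranged from 72.7% for mt-Cytb down to 2.62% for mt-Nd6. The values in this paragraph come from counts summed over all libraries of both tissues, so libraries with more counts weigh more. The make-up differed between tissues, and the values describe neither tissue alone. mt-Nd1, a complex I subunit, stood at 47.6%, mt-Nd2 at 32.4%, mt-Nd4 at 25.8% and mt-Nd5 at 25.8%. Of the stretches of 50 bases, 62.2% in mt-Nd4 and 51.1% in mt-Co1, the reference, occur in other transcripts. How reads from them were counted is not given, so the level of mt-Nd4 and all values relative to mt-Co1 carry this limit. The rRNAs of the small and the large mitochondrial ribosomal subunit, mt-Rnr1 and mt-Rnr2, stood at 42.0% and 33.7%. The library kit primes from poly(A) tails, and rRNAs carry only short tails, so these values do not give the abundance of rRNA relative to mRNA in the cell. Any mRNA with a short tail or none, mt-Nd6 included, would be undercounted in the same way, and tails were not measured here. mt-Nd6 is the only mRNA gene on the opposite strand. It shares 14 bases with mt-Nd5, and since the kit does not mark strand, reads of mt-Nd6 and of RNA antisense to it cannot be told apart. The 6 uncertain genes stood between 0.00654% for mt-Atp8 and 0.106% for mt-Nd3.

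Among the uncertain genes, mt-Nd3 had the highest levels. In forebrain, mt-Nd3 of complex I ranged from 4.10 to 4.90 CPM in Het, 3.58 to 4.52 in KO, 5.13 to 5.75 with anti-gp120 and 4.39 to 6.04 with anti-IL34. In isolates mt-Nd3 ranged from 2.52 to 5.78 CPM in Het, 7.33 to 12.2 in KO, 2.72 to 11.7 with anti-gp120 and 7.09 to 11.0 with anti-IL34. For mt-Co2 of complex IV, the isolate ranges were 0.646 to 2.09 CPM in Het, 1.39 to 3.13 in KO, 0.618 to 2.38 with anti-gp120 and 1.18 to 3.14 with anti-IL34. Of the ATP synthase subunits, mt-Atp6 was at 0.371 to 2.91 CPM and mt-Atp8 at 0 to 0.570 CPM in isolates, so the ATP synthase class could not be followed in these files.

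The tRNAs had few counts. Since the kit primes from poly(A) tails, these counts do not give the abundance of tRNA in the cell. mt-Tk had 0 counts in all 30 libraries, which at 3 counts allows up to 0.0399 CPM (counts per 1000000 counts of the library) in the deepest library and 0.199 CPM in the shallowest. Of the 22 tRNAs, 7 had a median of at least 10 counts, and all 22 together reached 9.64 to 31.4 CPM. The 3 with the highest mean level were mt-Tl1, the leucine tRNA that follows mt-Rnr2, at 6.60 CPM, mt-Tm, the methionine tRNA, at 4.21 CPM and mt-Tw, the tryptophan tRNA, at 3.73 CPM. The sequences of mt-Tl1 and of the 2 tRNAs that differed most between tissues, mt-Ti for isoleucine and mt-Tw, are shown because their short length and their contact with neighbouring genes bear on how their counts can be read. Capitals mark bases shared with a neighbouring gene.

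mt-Tl1 (chrM:2676-2750, plus strand): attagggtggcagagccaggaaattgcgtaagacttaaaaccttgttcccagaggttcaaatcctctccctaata

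mt-Ti (chrM:3706-3774, plus strand): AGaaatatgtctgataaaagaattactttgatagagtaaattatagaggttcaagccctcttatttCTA

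mt-Tw (chrM:4950-5016, plus strand): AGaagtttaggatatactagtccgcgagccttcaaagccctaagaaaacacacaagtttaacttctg

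mt-Ti overlaps mt-Nd1 by 2 bases and mt-Tq by 3, and mt-Tw overlaps mt-Nd2 by 2. Reads that run from an mRNA into such a tRNA can therefore be counted for the tRNA, for the mRNA or for neither, depending on options not given in the sources used here.

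Libraries held 15064391 to 75158213 counts. The isolates were checked against markers of their label. The sum of 7 microglia markers, such as Csf1r and P2ry12, was 3920 to 16311 CPM in the 15 isolates and 80.9 to 395 CPM in the 15 forebrain libraries, and the sum of 9 neuronal markers was 106 to 650 CPM in isolates and 5133 to 6154 CPM in forebrain. The isolates were not free of other cell types: the sum of 6 astrocyte markers, such as Aqp4 and Gja1, was 2991 to 17419 CPM there, against 6240 to 7839 CPM in whole forebrain. The sum of 7 oligodendrocyte lineage markers was 2880 to 10055 CPM in Het isolates and 8342 to 17540 CPM in KO isolates. It was 3744 to 8210 CPM with anti-gp120 and 5896 to 11917 CPM with anti-IL34. The sum of 5 choroid plexus markers was 1660 to 3973 CPM in Het isolates and 1121 to 3434 CPM in KO isolates. With anti-gp120 it was 4.08 to 8.71 CPM, and with anti-IL34 6.08 to 1960 CPM. Among the control isolates, the library of anti-gp120 animal 15 stood apart in its mitochondrial share, and values without it are given beside the isolate results where it moved a call or a value. It was singled out by the quantity that is compared, so calls gained without it are not independent evidence of a difference. Il34 itself was measured at 21.5 ± 2.19 CPM (SD, n = 4) in Het forebrain and 7.74 ± 0.960 CPM (n = 3) in KO forebrain.

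The share of the library taken by the 37 genes was narrow in forebrain and wide in isolates. Over all arms it was 5.20 ± 0.403% of counts in forebrain (SD, n = 15) and 10.4 ± 4.0% in isolates (n = 15). mt-Co1, the catalytic subunit of complex IV, was the gene with the most counts in all 30 libraries, with 1.33 to 5.04% of the library. In forebrain the share was 5.08, 5.39, 5.05 and 5.12% in Het animals 1, 20, 21 and 23. KO animals 3, 6 and 24 had 4.81, 4.70 and 4.91%. All 3 KO forebrains were thus below all 4 Het forebrains, with a ratio of means of 0.932, a difference of -0.10 on the log2 scale against a pooled SD of 0.0386. In the antibody experiment the forebrain share was 6.03, 5.50, 5.46 and 5.33% in anti-gp120 animals 1, 7, 8 and 15 and 5.68, 4.76, 4.67 and 5.57% in anti-IL34 animals 2, 10, 11 and 24. These arms overlapped, with a ratio of means of 0.926.

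In the isolates the Het share was 10.2, 6.43, 4.75 and 7.63% in animals 1, 20, 21 and 23, and the KO share was 13.1, 10.9 and 15.4% in animals 3, 6 and 24. All 3 KO isolates were above all 4 Het isolates, with a ratio of means of 1.82, or 0.86 on the log2 scale against a pooled SD of 0.389. The anti-gp120 isolates of animals 1, 7, 8 and 15 had 5.38, 7.59, 5.39 and 14.9%, and the anti-IL34 isolates of animals 2, 10, 11 and 24 had 13.6, 15.1, 10.4 and 15.4%. Of the anti-gp120 libraries, 3 lay below all anti-IL34 libraries, while animal 15 lay among them. The ratio of means was 1.64, or 0.71 on the log2 scale against a pooled SD of 0.522. Without anti-gp120 animal 15 the difference was 1.16 on the log2 scale. No test was made of the share, since it is a sum over members chosen with earlier results known. In such bulk libraries, fewer cells of a type and less RNA per cell cannot be told apart.

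**Figure D2:**
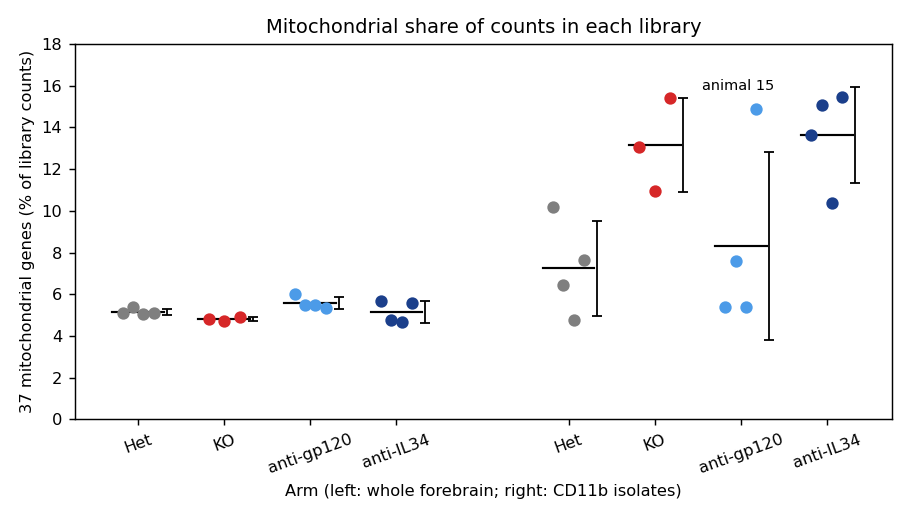
Share of the library counts taken by the 37 mitochondrial genes (y axis, percent) in each of the 30 libraries (points), with mean and SD per arm, for whole forebrain on the left and isolates on the right. The forebrain libraries lie between 4.67 and 6.03%, whereas the isolates run from 4.75 to 15.4%, with anti-gp120 animal 15 at 14.9%.

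Marker levels moved with this share across the isolates. The 3 isolates with the lowest mitochondrial share, Het animal 21 and anti-gp120 animals 1 and 8, also had the lowest astrocyte marker sums, 2991, 4497 and 5606 CPM, and the highest microglia marker sums, 16311, 15766 and 13819 CPM. The 3 isolates with the highest share, anti-IL34 animals 24 and 10 and KO animal 24, had astrocyte sums of 17419, 14344 and 15161 CPM and microglia sums of 5547, 4800 and 3920 CPM. Anti-gp120 animal 15 had an astrocyte sum of 15490 CPM and a microglia sum of 10374 CPM. Across the groups, the sum of 9 heat-shock and dissociation genes was 8802 to 13596 CPM in Het isolates and 3827 to 5061 CPM in KO isolates. It was 7783 to 12937 CPM in anti-gp120 isolates and 5665 to 9372 CPM in anti-IL34 isolates. None of the astrocyte, microglia or oligodendrocyte markers was at 0 throughout a group. The part of cell makeup and of the isolation in the mitochondrial share was not tested.

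**Figure D3:**
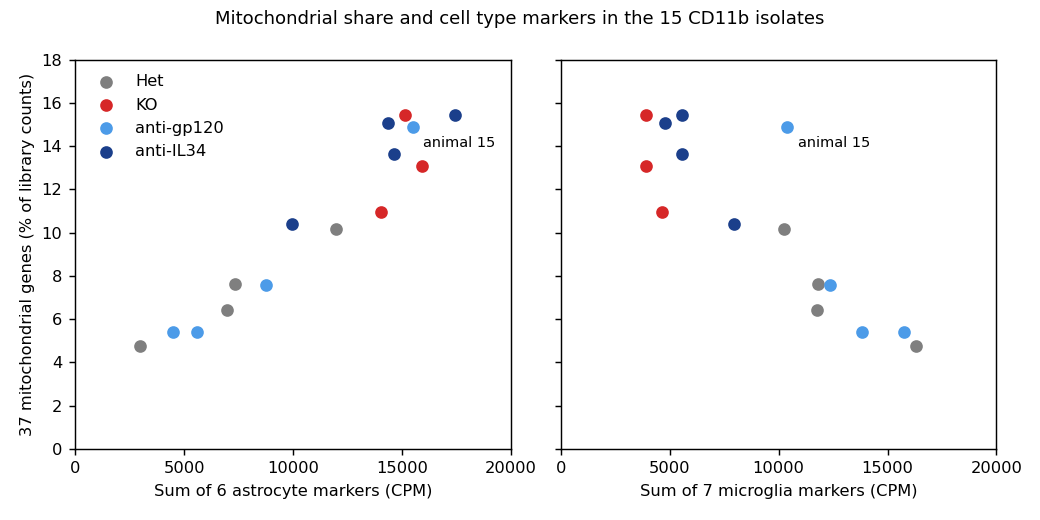
Share of counts in the 37 mitochondrial genes (y axis, percent) against the sum of 6 astrocyte markers (left) and of 7 microglia markers (right), both in CPM, for the 15 isolates coloured by arm. The isolates with the lowest share sit at the left of the astrocyte panel, from 2991 CPM, and at the right of the microglia panel, up to 16311 CPM.

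The make-up of the mitochondrial counts differed between the tissues. Complex I mRNAs took 38.1 ± 1.26% of mitochondrial counts in forebrain (SD, n = 15, range 35.5 to 39.8%) and 29.7 ± 0.873% in isolates (n = 15, range 28.7 to 31.4%), with no overlap. Within complex I, mt-Nd5 differed by the most percentage points: it made up 11.3 to 13.8% of mitochondrial counts in forebrain and 6.35 to 8.49% in isolates. mt-Nd1 made up 9.75 to 10.7% in forebrain and 8.01 to 9.06% in isolates. mt-Nd6 made up 0.338 to 0.504% in forebrain and 0.108 to 0.246% in isolates. These 3 were the members of the well-counted set whose forebrain and isolate libraries did not overlap, 3 of 9. mt-Nd2 had 6.81 to 7.95% in forebrain and 5.51 to 6.88% in isolates, and mt-Nd4 had 6.52 to 7.26% and 6.75 to 7.68%.

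The parts of complexes III and IV and of the rRNAs had higher means in isolates. mt-Co1 held 28.0 to 31.5% of mitochondrial counts in forebrain and 30.8 to 34.5% in isolates. mt-Cytb, the complex III subunit, held 15.1 to 16.2% and 16 to 18.7%. The rRNAs together held 16.8 ± 1.22% in forebrain and 20.1 ± 1.67% in isolates. The ratio of mt-Rnr2 to mt-Rnr1 was 1.54 ± 0.0465 in forebrain and 1.26 ± 0.0856 in isolates. The tRNAs held 0.0346% in forebrain and 0.0200% in isolates. Parts of a whole move against each other, so these shares are a description and carry no test.

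Between arms of the same tissue, the mt-Nd6 part was compared. In isolates, mt-Nd6 made up 0.183, 0.187, 0.231 and 0.20% of mitochondrial counts in Het animals 1, 20, 21 and 23 and 0.156, 0.108 and 0.130% in KO animals 3, 6 and 24. The KO isolates were thus all below the Het isolates in this ratio. No other single member was compared between arms in this way, so how many members separate the genotypes is not given. The rRNA part overlapped in the same isolates, at 17.6 to 21.3% in Het and 19.2 to 22.8% in KO. In forebrain the 2 genotypes overlapped, at 0.387 to 0.448% in Het and 0.392 to 0.437% in KO. The antibody arms overlapped for mt-Nd6 in isolates, at 0.193 to 0.246% with anti-gp120 and 0.175 to 0.217% with anti-IL34. The ratio of mt-Rnr2 to mt-Rnr1 also separated arms, in forebrain only. It was 1.534 to 1.611 in Het and 1.527 to 1.533 in KO forebrain. With anti-gp120 it was 1.543 to 1.648 there, and with anti-IL34 1.463 to 1.523. In isolates the arms of both experiments overlapped in this ratio, and no test was made of it.

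**Figure D4:**
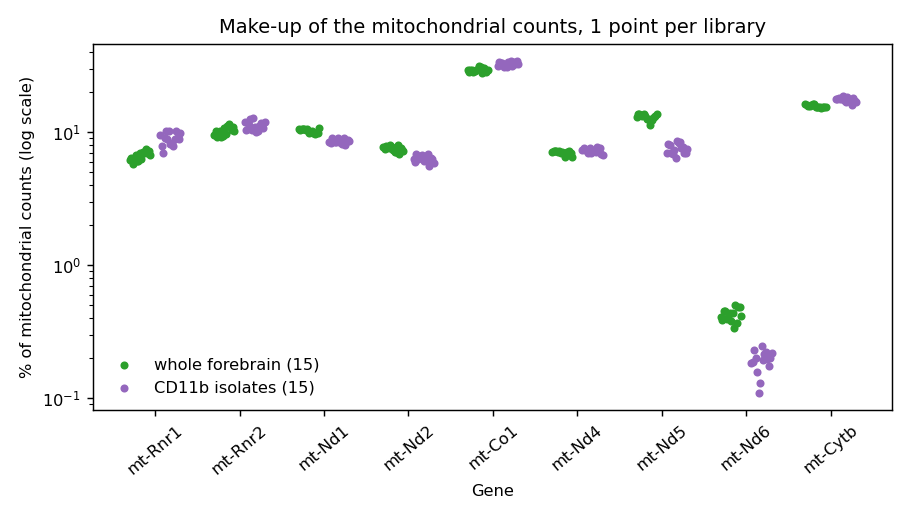
Each of the 9 well-counted mitochondrial genes as a percent of the counts of all 37 (y axis, log scale), with 1 point per library, for 15 whole-forebrain libraries and 15 isolates. mt-Nd5 (11.3 to 13.8% against 6.35 to 8.49%) and mt-Nd6 (0.338 to 0.504% against 0.108 to 0.246%) are lower in isolates, with no overlap.

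The level of each transcript in isolates against whole forebrain was tested in the 8 control animals. The ribosomal RNAs and the main mRNAs of complexes III and IV were higher in isolates, 2 tRNAs were lower and the complex I mRNAs were mixed. Of the 37 members, 22 passed the filter on low counts, and 9 of these passed edgeR's quasi-likelihood test at a Benjamini-Hochberg adjusted p of 0.05, 7 higher and 2 lower. Over all genes tested in this contrast 84.1% passed, 40.8% higher and 43.3% lower, so a call here is the common outcome. DESeq2 called 12 members (73.8% of all genes), and without the filter on low counts 14 were called (56.5%). The median log2 fold change was 0.34 over the members tested and -0.04 over all genes. Both libraries of an animal entered this contrast and the later tissue differences with no animal block. Their p-values therefore measure the spread between libraries and ignore the pairing. With the animal as a block, 10 members were called here, with an edgeR adjusted p of 0.027 for mt-Rnr2 and 0.028 for mt-Co1. In the comparisons of arms, where each animal gives 1 library, each p-value measures the spread between animals.

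Among rRNAs, mt-Rnr1 had 2922 to 4165 CPM in control forebrain (median 3435) and 3329 to 13267 CPM in control isolates (median 5697). The ranges overlapped, and mt-Rnr1 rose by 1.03 on the log2 scale in isolates (SE 0.26, edgeR adjusted p = 0.0014). mt-Rnr2 had 4610 to 6449 CPM in forebrain (median 5417) and 5006 to 16446 CPM in isolates (median 7144), and rose by 0.74 (SE 0.24, edgeR adjusted p = 0.0098). In both, the upper end of the isolates was anti-gp120 animal 15.

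For complex III, mt-Cytb had 7962 to 9385 CPM in control forebrain (median 8341) and 8616 to 25349 CPM in control isolates (median 12434), and rose by 0.80 (SE 0.23, edgeR adjusted p = 0.0048). For complex IV, mt-Co1 had 14873 to 17935 CPM in forebrain (median 15119) and 15574 to 46954 CPM in isolates (median 23373), and rose by 0.77 (SE 0.24, edgeR adjusted p = 0.0065). mt-Co3, another complex IV subunit and one of the 6 uncertain genes, had 0.387 to 0.933 CPM in forebrain (median 0.722) and 0.680 to 2.56 CPM in isolates (median 1.55), with a log2 fold change of 1.22 (SE 0.27, edgeR adjusted p = 0.00048). That value rests on 6 to 102 counts per control library, and how reads shared with the copy of mt-Co3 were treated is not given.

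In complex I, mt-Nd4 passed the test, with 3576 to 4274 CPM in control forebrain (median 3723), 3467 to 11426 CPM in control isolates (median 5155) and a log2 fold change of 0.70 (SE 0.23, edgeR adjusted p = 0.012). mt-Nd1 (0.38) and mt-Nd2 (0.40) did not pass, and without anti-gp120 animal 15 they were at 0.15 and 0.17. mt-Nd5 was at 6158 to 7519 CPM in forebrain (median 6890) and 3772 to 11225 CPM in isolates (median 5269), with a log2 fold change of -0.11 and an edgeR adjusted p of 0.64, and was at -0.29 without anti-gp120 animal 15. mt-Nd6 was at 185 to 269 CPM in forebrain (median 227) and 110 to 331 CPM in isolates (median 140), with -0.38 and an edgeR adjusted p of 0.11. With library totals in place of TMM scaling, with the animal as a block, or without anti-gp120 animal 15, mt-Nd6 passed as lower, at -0.49, -0.47 and -0.55, where 83.6%, 83.4% and 84.3% of all genes were called. mt-Nd3 (-0.02) and mt-Nd4l (0.30), both uncertain, did not pass, and neither did mt-Co2 (0.41) or mt-Atp6 (0.29). Without anti-gp120 animal 15 these 4 were at -0.33, 0.05, 0.16 and 0.23. The members that had passed in complexes I, III and IV and among the rRNAs still passed without that library, at 0.48 for mt-Nd4, 0.60 for mt-Cytb, 0.58 for mt-Co1, 1.09 for mt-Co3, 0.83 for mt-Rnr1 and 0.54 for mt-Rnr2.

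Among the tRNAs, mt-Ti had 0.775 to 2.11 CPM in control forebrain (median 1.33, 28 to 114 counts). In control isolates it had 0 to 0.601 CPM (median 0.181), with 0 counts in Het animal 20 and anti-gp120 animal 8, each of which allows up to 0.189 and 0.185 CPM. No control isolate reached the lowest control forebrain library, and mt-Ti fell by 2.53 on the log2 scale (SE 0.43, edgeR adjusted p = 4.2e-05). mt-Tw had 4.34 to 5.97 CPM in control forebrain (median 4.80) and 1.24 to 3.98 CPM in control isolates (median 2.05), again without overlap, and fell by 0.94 (SE 0.22, edgeR adjusted p = 0.00097). Over all genes tested, 34.2% were lower in isolates without overlap. mt-Tl1 went the other way, from 4.45 to 5.42 CPM in forebrain (median 4.98) to 3.71 to 12.3 CPM in isolates (median 6.13), with a log2 fold change of 0.59 (SE 0.21, edgeR adjusted p = 0.018). Without Het animal 1 mt-Tl1 did not pass, and the other 8 calls were kept. mt-Tm, at 3.52 to 5.37 CPM in forebrain and 2.08 to 6.26 CPM in isolates, did not pass (-0.22). Without anti-gp120 animal 15 mt-Tm passed as lower, at -0.35, and 11 members were called.

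Loss of IL-34 by deletion was compared in forebrain first. The 9 well-counted mitochondrial transcripts were 0.06 to 0.14 lower on the log2 scale in KO than in Het forebrain, and none passed the test. Of the 37 members, 24 passed the filter. The number called by edgeR was 0 of 24, and 0 of 21 by DESeq2. The background was 0.62% of genes called by edgeR. At an unadjusted p of 0.05, 6 members passed, beside 7.45% of all genes. The median log2 fold change was -0.09 over the members tested and -0.00 over all genes.

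mt-Co1 had 14941, 15297, 14873 and 14873 CPM in Het animals 1, 20, 21 and 23 and 13591, 13569 and 14457 CPM in KO animals 3, 6 and 24, with a log2 fold change of -0.11 (SE 0.04). mt-Nd4, a complex I subunit and the member of smallest p, had 3626, 3849, 3663 and 3669 CPM in Het and 3417, 3373 and 3432 CPM in KO, a log2 fold change of -0.12 (SE 0.04, edgeR adjusted p = 0.44). In both genes all KO libraries were below all Het libraries. mt-Rnr2 had 4830, 5509, 4610 and 4912 CPM in Het and 4914, 4334 and 4583 CPM in KO, with overlap (-0.10, SE 0.06). mt-Nd6 had 207, 208, 226 and 229 CPM in Het and 188, 192 and 215 CPM in KO, also with overlap (-0.14, SE 0.06). Of the 9 well-counted genes, 6 were lower in KO without overlap, where 5.32% of all genes tested were. Of the 24 members, 1 was higher without overlap, beside 3.54% of all genes. Group levels were 5416 ± 112 CPM in Het (SD, n = 4) and 5026 ± 152 CPM in KO (n = 3) for mt-Nd1, 3945 ± 34.3 and 3711 ± 83.3 CPM for mt-Nd2, 6947 ± 343 and 6436 ± 72.9 CPM for mt-Nd5, 8215 ± 263 and 7758 ± 183 CPM for mt-Cytb and 3153 ± 204 and 3013 ± 195 CPM for mt-Rnr1. In the same libraries the oligodendrocyte marker sum was 5139 to 6207 CPM in Het and 4200 to 4520 CPM in KO, and the microglia marker sum was 196 to 220 and 80.9 to 96.3 CPM. Their part in the result was not tested.

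In isolates the deletion comparison went the other way, again with no member past the test. The 9 well-counted transcripts were 0.32 to 1.06 higher on the log2 scale in KO isolates. edgeR called 0 of 21 members tested against 5.37% of all genes, and 6 members had an unadjusted p under 0.05, beside 32.6% of all genes. DESeq2 called 11 of 20, all higher, among them 8 of the 9 well-counted genes, where it called 22.8% of all genes. Without the filter on low counts edgeR called 2 members, mt-Tp and mt-Nd3 (6.78% of all genes), and without sex terms the same 2 (12% of all genes). The median log2 fold change was 0.83 over the members tested and 0.02 over all genes.

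mt-Co1 had 32086, 21629, 15574 and 25116 CPM in Het animals 1, 20, 21 and 23 and 40343, 34990 and 47942 CPM in KO animals 3, 6 and 24. No KO isolate overlapped the Het isolates, and the log2 fold change was 0.80 (SE 0.58, edgeR adjusted p = 0.36). mt-Rnr2 had 12088, 6664, 5006 and 8583 CPM in Het and 16300, 11366 and 19544 CPM in KO (0.99, SE 0.50, edgeR adjusted p = 0.20), where KO animal 6 lay below Het animal 1. mt-Nd6 had 186, 120, 110 and 152 CPM in Het and 205, 119 and 201 CPM in KO (0.32, SE 0.28), and its arms overlapped. The member of smallest p was mt-Tp, the proline tRNA, with 1.02, 0.692, 0.748 and 0.578 CPM in Het and 1.71, 1.34 and 2.73 CPM in KO. Its log2 fold change was 1.38 (SE 0.39, edgeR adjusted p = 0.090), on 11 to 23 counts in Het and 51 to 66 counts in KO libraries.

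Of the 21 members tested, 11 were higher in KO isolates without overlap, 7 of them among the 9 well-counted genes. This stands beside 18.9% of all genes tested. Levels in Het and KO isolates were 6200 ± 1848 and 11341 ± 2335 CPM for mt-Nd1, 4565 ± 1369 and 8678 ± 1541 CPM for mt-Nd2, 5338 ± 1666 and 9367 ± 1200 CPM for mt-Nd4 and 5337 ± 1335 and 8930 ± 897 CPM for mt-Nd5 (SD, n = 4 and 3). They were 12900 ± 3998 and 23319 ± 2952 CPM for mt-Cytb and 6219 ± 2680 and 12823 ± 2970 CPM for mt-Rnr1. Het animal 1 was the highest Het library for each of these 6 genes. Without it edgeR called 4 members, mt-Tl1, mt-Tm, mt-Tp and the uncertain mt-Nd3, with 31.5% of all genes called, and the 9 well-counted genes ran from 0.43 to 1.36, none of them called. Astrocyte markers summed to 2991 to 11995 CPM in Het isolates and 14022 to 15918 CPM in KO isolates, and microglia markers to 10262 to 16311 CPM and 3920 to 4644 CPM. Oligodendrocyte markers summed to 2880 to 10055 CPM in Het and 8342 to 17540 CPM in KO isolates. Choroid plexus markers summed to 1660 to 3973 CPM and 1121 to 3434 CPM. Their part in the result was not tested.

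The antibody comparison in forebrain gave small differences. The 9 well-counted transcripts were 0.05 to 0.20 lower on the log2 scale with anti-IL34, with no call. edgeR called 0 of 21 members tested against 0.717% of all genes, DESeq2 called 0 of 25, and 3 members had an unadjusted p under 0.05, beside 4.86% of all genes. mt-Co1, the member of smallest p, had 17935, 17350, 16905 and 14936 CPM in anti-gp120 animals 1, 7, 8 and 15 and 17235, 13897, 13302 and 16217 CPM in anti-IL34 animals 2, 10, 11 and 24, with a log2 fold change of -0.20 (SE 0.08, edgeR adjusted p = 0.96). mt-Rnr2 had 6449, 5325, 6028 and 6164 CPM with anti-gp120 and 6188, 4896, 5127 and 5649 CPM with anti-IL34 (-0.14, SE 0.09). mt-Nd6 had 229, 238, 185 and 269 CPM with anti-gp120 and 207, 231, 224 and 230 CPM with anti-IL34 (-0.05, SE 0.10), and without anti-gp120 animal 15 its sign changed, to 0.03. Group levels with anti-gp120 and anti-IL34 were 5571 ± 262 and 5203 ± 649 CPM for mt-Nd1, 4106 ± 259 and 3718 ± 257 CPM for mt-Nd2, 8648 ± 504 and 7942 ± 719 CPM for mt-Cytb and 3802 ± 295 and 3661 ± 429 CPM for mt-Rnr1 (SD, n = 4 each). The arms overlapped in mt-Co1, mt-Rnr2 and mt-Nd6, and 1 member of the 21 was lower with anti-IL34 without overlap, beside 2.04% of all genes. In these libraries the microglia marker sum was 316 to 395 CPM with anti-gp120 and 145 to 175 CPM with anti-IL34, and its part in the result was not tested.

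In isolates, the 9 well-counted transcripts were 0.62 to 0.96 higher on the log2 scale with anti-IL34, with no call. edgeR called 0 of 22 members tested against 0.626% of all genes, 0 members had an unadjusted p under 0.05, beside 25.9% of all genes, and DESeq2 called 0 of 21. The median was 0.79 over the members tested and 0.06 over all genes. mt-Co1 had 18086, 25140, 18553 and 46954 CPM in anti-gp120 animals 1, 7, 8 and 15 and 45515, 48591, 35561 and 50443 CPM in anti-IL34 animals 2, 10, 11 and 24 (0.80, SE 0.51). mt-Rnr2 had 5859, 7625, 5519 and 16446 CPM with anti-gp120 and 15857, 16470, 11129 and 18428 CPM with anti-IL34 (0.88, SE 0.52). mt-Nd6 had 133, 147, 115 and 331 CPM with anti-gp120 and 267, 263, 209 and 336 CPM with anti-IL34 (0.66, SE 0.43). mt-Tp, the member of smallest p, had 1.01, 0.888, 0.680 and 1.73 CPM and 2.12, 1.57, 1.66 and 2.22 CPM (0.79, SE 0.37, edgeR adjusted p = 0.21).

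Levels with anti-gp120 and anti-IL34 were 7163 ± 4275 and 11480 ± 1871 CPM for mt-Nd1, 6146 ± 3598 and 9687 ± 1848 CPM for mt-Nd4, 6641 ± 3158 and 9948 ± 1841 CPM for mt-Nd5, 14456 ± 7589 and 23194 ± 4218 CPM for mt-Cytb and 7060 ± 4243 and 13007 ± 2624 CPM for mt-Rnr1 (SD, n = 4 each). Of the 22 members, 0 had arms without overlap, beside 8.08% of all genes higher and 5.59% lower without overlap. In mt-Co1, mt-Rnr2, mt-Nd6 and mt-Tp, 3 anti-gp120 isolates lay below every anti-IL34 isolate and animal 15 lay among them. Without anti-gp120 animal 15, edgeR called 19 of 21 members, all higher with anti-IL34, where 40.4% of all genes tested were called. The 9 well-counted genes then ran from 0.93 to 1.34 on the log2 scale, and all 9 were called. The call in this comparison therefore depended on 1 library. Since that library was singled out by its high share, leaving it out favours higher calls, which are not independent evidence of a change. Astrocyte markers summed to 4497 to 15490 CPM with anti-gp120 and 9975 to 17419 CPM with anti-IL34, and microglia markers to 10374 to 15766 CPM and 4800 to 7946 CPM. The sum of 5 choroid plexus markers was 4.08 to 8.71 CPM with anti-gp120 and 6.08 to 1960 CPM with anti-IL34. Their part in the result was not tested.

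**Figure D5:**
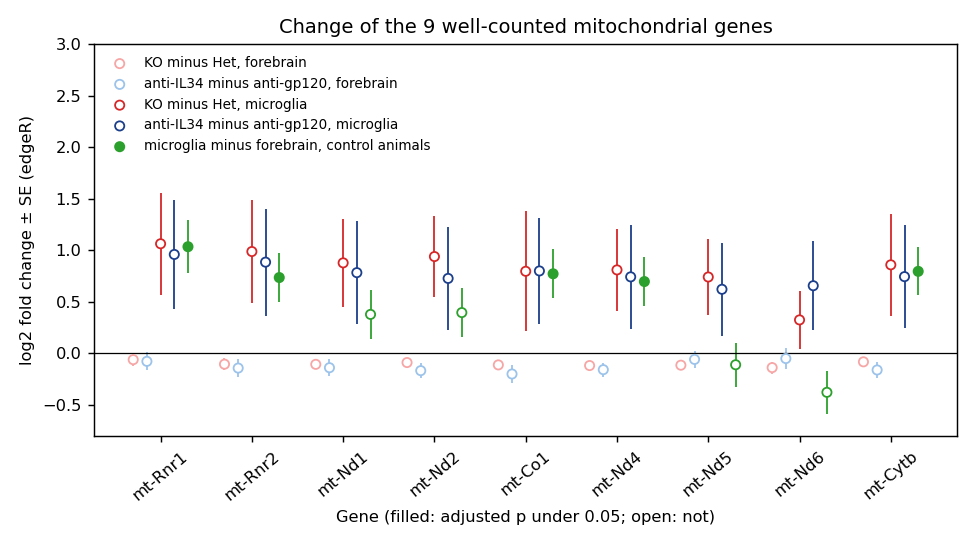
Log2 fold change with SE (y axis, edgeR) of the 9 well-counted mitochondrial genes for the deletion and antibody comparisons in forebrain and isolates and for isolates against forebrain in control animals; filled points passed an adjusted p of 0.05. The forebrain comparisons lie between -0.20 and -0.05, the isolate comparisons between 0.32 and 1.06 with wide errors, and filled points occur only for isolates against forebrain.

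Whether the effect of losing IL-34 differed between tissues was tested as an interaction. For the deletion, the difference (isolate effect minus forebrain effect) was 0.48 to 1.15 on the log2 scale over the 9 well-counted genes, 1.12 for mt-Rnr2 (SE 0.41), 0.93 for mt-Co1 (SE 0.37) and 0.48 for mt-Nd6 (SE 0.30). edgeR called 0 of 24 members tested against 2.98% of all genes, while 14 members had an unadjusted p under 0.05, beside 31% of all genes, and DESeq2 called 12 of 21 (21.2% of all genes). Without the filter 8 were called (4.82% of all genes), and without sex terms 3 (11.9%). The smallest adjusted p was that of mt-Nd4l, an uncertain gene, at 1.42 (SE 0.37, edgeR adjusted p = 0.059). mt-Nd4l had 0.543, 0.788, 0.766 and 0.838 CPM in Het forebrain and 0.523, 0.557 and 0.377 CPM in KO forebrain, and 0.952, 0.755, 0.612 and 0.779 CPM in Het isolates and 1.45, 1.07 and 1.61 CPM in KO isolates. Without Het animal 1, 12 members were called, among 28.5% of all genes, and without Het animal 21, 5 were called, among 16.3% of all genes.

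For the antibody, the same difference was 0.68 to 1.03 over the 9 well-counted genes, 1.02 for mt-Rnr2 (SE 0.49), 1.00 for mt-Co1 (SE 0.46), 0.70 for mt-Nd6 (SE 0.44) and 1.14 for mt-Tp, the member of smallest p (SE 0.45, edgeR adjusted p = 0.21). edgeR called 0 of 22 members against 0.0924% of all genes, 3 members had an unadjusted p under 0.05, beside 21.1% of all genes, and DESeq2 called 0 of 13. Without the filter edgeR called 2, mt-Rnr1 and mt-Rnr2 (4.15% of all genes). Without anti-gp120 animal 15, 18 members were called, among 29.9% of all genes. These calls carry the same limit, since that library was singled out by its share.

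The deletion and the antibody effects share no libraries, and their difference was tested in each tissue. In forebrain edgeR called 0 of 24 members against 0.0101% of all genes. The differences over the 9 well-counted genes ran from -0.10 to 0.07 on the log2 scale, with a 95% interval of -0.16 to 0.30 for mt-Co1 (0.07) and of -0.22 to 0.28 for mt-Rnr2 (0.03). In isolates edgeR called 0 of 23 members, and 0% of all genes. There the interval was -1.45 to 1.54 for mt-Co1 (0.04), -1.34 to 1.70 for mt-Rnr2 (0.18) and -1.45 to 0.98 for mt-Nd6 (-0.23). No member had an unadjusted p under 0.05 in either tissue, beside 3.07% of all genes in forebrain and 3.95% in isolates, and DESeq2 called 0 of 32 and 0 of 16. The smallest p belonged to mt-Te, the glutamate tRNA, in forebrain (0.82, SE 0.60) and to mt-Ti in isolates (1.88, SE 1.43). mt-Ti had 0.207, 0.288 and 1.52 CPM in KO isolates and 0.254, 0, 0.204 and 0.0753 CPM in Het isolates, on at most 34 counts. For mt-Co1 and mt-Rnr2, the isolate intervals hold differences of more than 1 log2 unit in either direction.

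Nuclear genes that serve the mitochondrial genome gave few calls in the comparisons of arms. Of 20 genes for transcription and replication of mitochondrial DNA, 1 fell in KO isolates, Primpol, a primase-polymerase (-0.94, SE 0.15, edgeR adjusted p = 0.021), and 0 were called in the other comparisons of arms. Over all genes, 5.22% fell in KO isolates. In the tissue difference of the deletion effect Primpol (-0.82, edgeR adjusted p = 0.032) and Twnk, the helicase of the replication fork (-0.64, edgeR adjusted p = 0.047), were lower, as were 2.43% of all genes. Of 25 genes for processing, polyadenylation and decay of mitochondrial RNA, 24 were tested and 0 called in any comparison of arms. Polrmt was at -0.12 in KO isolates and 0.05 in anti-IL34 isolates, Tfam at -0.02 and 0.02, and Lrpprc at -0.45 (SE 0.12, edgeR adjusted p = 0.075) and -0.43 (SE 0.12, edgeR adjusted p = 0.11). In forebrain Polrmt was at -0.02 in KO and -0.15 with anti-IL34, Tfam at 0.07 and 0.14, and Lrpprc at 0.05 and 0.10, none of them called. Fastkd5, of the processing list, was listed at 0 in all libraries.

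Between tissues, 8 of the 20 genes of the transcription and replication list were higher and 10 lower in control isolates, where 84.1% of all genes were called, 40.8% higher and 43.3% lower. Primpol (2.20), Mgme1 (2.42), a nuclease of mitochondrial DNA maintenance, Polg2 (1.45), the accessory subunit of the DNA polymerase, and Gabpa (0.79), a transcription factor of respiratory genes, rose with the smallest p. Tfam fell by 0.41 and Polrmt by 0.25. Of the 24 genes tested in the processing list 4 were higher and 15 lower, beside the same shares of all genes, led by Ptcd2 (-0.72), Rexo2 (-0.85), Ptcd3 (-0.78) and Mrm3 (-1.41). Lrpprc fell by 0.35. The median was -0.19 in the first list and -0.27 in the second, beside -0.04 over all genes.

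The nuclear-encoded subunits and assembly factors of the respiratory chain work beside the products of the mitochondrial mRNAs. Of 98 listed, 93 were tested between tissues, 9 higher and 57 lower in isolates, beside 40.8% of all genes higher and 43.3% lower, with a median of -0.40 beside -0.04 over all genes. In the comparisons of arms 0 were called in each of forebrain and isolates. Their median in isolates was 0.38 for KO minus Het, beside 0.02 over all genes, and 0.41 for anti-IL34 minus anti-gp120, beside 0.06. The astrocyte marker sum was 14022 to 15918 CPM in KO isolates and 2991 to 11995 CPM in Het isolates, and its part in these medians was not tested. In forebrain the median was 0.01 and -0.06. The tissue difference of the deletion effect called 3 of them as higher, Cox6a2, Atp5pf and Atp5po, a complex IV and 2 ATP synthase subunits, beside 0.552% of all genes. Cox4i1, Ndufa13 and Cox8c were listed at 0 in all libraries.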

How the data were processed

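The files used hold raw counts per gene, deposited by the authors as 1 table of 30 libraries. Per the labels' protocols, RNA was extracted with TRIzol and libraries were made with the Takara SMART-Seq v4 kit, which primes on poly(A) and does not mark strand. The submitters' processing notes name STAR 2.7.5c, featureCounts 1.6.3, R 4.4.0 and GRCm38. Counting options are not given in the sources used here. A deposited TPM table was not used, and 6 per-sample columns were not used. Libraries held 15064391 to 75158213 counts.

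Members and lists were chosen with earlier results of these data known. CPM are counts per 1000000 of the library total, whereas fold changes come from edgeR 4.0.16 (R 4.3.3, limma 3.58.1) with TMM scaling, filterByExpr, sex as a covariate and the quasi-likelihood test, adjusted by Benjamini-Hochberg over all genes at 0.05, and the script was tested on simulated data. Alternatives were other scalings, no filter, no sex terms, DESeq2 1.42.0, the animal as a block and each animal left out. Figures were drawn with matplotlib 3.10.9. All 37 members were accounted for. Per-library values were given for members past the threshold or, with none, for mt-Rnr2, mt-Co1, mt-Nd6 and the member of smallest p. In the tissue contrast, all members called and further mRNAs and mt-Tm were given as ranges. tRNAs were named for their mean level or a call. Nuclear genes were the 4 of smallest p among those called per list and comparison, besides Polrmt, Tfam and Lrpprc.

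Forebrain and isolate of 1 animal are paired by the labels. Their deviations from the group means correlated with a median r of 0.11 over 15 pairs (0.0404 to 0.172, 9 over 0.1). Replicates of a group differed beyond sampling noise in all 42 pairs, with a chi-square per degree of freedom of at least 5.48. Sequences are those of GENCODE M21 transcripts on GRCm38.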

Additional observations from a re-analysis of the deposited data

Results flagged for a closer look

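Among 72 checks for a library far from the others of its arm, each of a single quantity in a group of 4 libraries, 3 found one. Chance gives about 1 in 20. The KO groups, with 3 libraries each, were not checked, and the quantities are not independent of each other. In Het forebrain, animal 20 had the highest share of counts in mitochondrial mRNAs, 4.49%, and the highest mt-Co1 level, 15297 CPM, each separated from the other 3 Het libraries by most of the range. In anti-gp120 isolates, animal 15 had 331 CPM of mt-Nd6 against 115 to 147 CPM in the other 3. Its mitochondrial share was checked too and was not flagged.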

How the results depend on the processing

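In KO isolates, 2 members were called without the filter on low counts, 2 without sex terms and 11 by DESeq2. Isolates against forebrain gave 14 calls without the filter. The tissue difference of the deletion effect gave 8 without the filter, 3 without sex terms and 12 by DESeq2, and that of the antibody effect gave 2 without the filter. Leaving out 1 animal gave 0 to 4 calls in KO isolates, 0 to 19 in anti-IL34 isolates, 8 to 11 for isolates against forebrain, 0 to 12 for the tissue difference of the deletion effect and 0 to 18 for that of the antibody effect. With the animal as a replicate block, isolates against forebrain gave 10 calls, and both tissue differences gave 0. Signs changed for mt-Nd6 with anti-IL34 in forebrain (0.027 without anti-gp120 animal 15) and in the deletion minus antibody difference. There, forebrain mt-Rnr2 ran up to 0.11 and was -0.036 without KO animal 3, -0.0036 without anti-gp120 animal 1 and -0.015 without anti-IL34 animal 11. Isolate mt-Rnr2 ran up to 0.45 and was -0.058 without KO animal 24, -0.27 without anti-gp120 animal 15 and -0.14 without anti-IL34 animal 11. Isolate mt-Co1 ran up to 0.29 and was -0.07 and -0.03 without Het animals 20 and 21, -0.13 without KO animal 24, -0.31 without anti-gp120 animal 15 and -0.23 without anti-IL34 animal 11. The cause was not tested. Between tissues, the uncertain mt-Nd3 changed sign with RLE size factors (0.0069), without mitochondrial counts in the scaling (0.023), without the filter (0.035) and without sex terms (0.0084), and ran from -0.33 to 0.085 with 1 animal left out. Of 754 values of named members under alternatives, 702 kept sign and side of the threshold, 29 newly passed it, 22 changed sign and 1 lost its call, mt-Tl1 between tissues without Het animal 1. Values called under neither setting count among the 702, and only isolates against forebrain had calls in the main fit. New calls of members not named in a comparison are outside this tally. Low counts limit the precision for the tRNAs and the 6 uncertain mRNAs.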
